A study of Homo sapiens with 12 samples.

Results

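PERP and 9 structural genes of the desmosome were followed through the RNA sequencing of 2 oral squamous cell carcinoma (OSCC) cell lines in which FAT1 had been silenced. The 10 genes, PERP, DSP, JUP, PKP1, PKP2, PKP3, DSG2, DSG3, DSC2 and DSC3, were taken by symbol from the 19225 entries of the count table. All 10 passed the filter on low counts that left 13887 genes for testing. PERP was chosen on its own readout, because it had risen in every knockdown group, so its differences between knockdown and control are given below as values without a test. The rule for the other 9, their place in the desmosome, used no measured value, although the set was proposed with earlier results of these data known.

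HN6 and HN30 cells were transfected with a scrambled siRNA (NC) or with siFAT1-1 or siFAT1-2, which carry different sequences against FAT1, and poly(A) RNA was sequenced 24 h later. Each of the 6 conditions had 2 repeats, made at separate times, giving 4 NC and 8 knockdown libraries. The sample titles call the knockdown groups short hairpins while their descriptions and the study's methods call them siRNAs. Total counts per library ran from 26430049 to 47639010. FAT1 itself, an atypical cadherin of the cell surface, was at 56.8 and 66.7 CPM (counts scaled to the size of the library) in the HN6 NC repeats, 7.61 and 13.5 CPM with siFAT1-1 and 13.2 and 21.4 CPM with siFAT1-2. In HN30 it was at 13.6 and 14.7 CPM in NC, 4.86 and 6.26 CPM with siFAT1-1 and 10.8 and 7.74 CPM with siFAT1-2. In each line the knockdown libraries lay below those of NC, a pattern that 438 of the 13887 genes had. The difference over both lines was -1.59 on the log2 scale (SE 0.31, adjusted p = 0.0404, edgeR quasi-likelihood test with Benjamini-Hochberg adjustment over the 13887 genes). With the repeat as a replicate block the adjusted p was 0.0757, with total counts in place of TMM it was 0.0673, without the cell line term it was 0.331, and without HN30 siFAT1-2 repeat 1 it was 0.0241. Removal of any other library raised it above 0.05, up to 0.124. In whole-culture RNA, fewer cells that express a gene and less RNA of it per cell cannot be told apart.

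Desmosomes are spot-like junctions that hold epithelial cells together and anchor their keratin filaments. Desmogleins (DSG) and desmocollins (DSC) are cadherins that cross the membrane and bind those of the neighbouring cell. Inside the cell, plakoglobin (JUP) and the plakophilins (PKP) bind the cadherin tails and link them to desmoplakin (DSP), which holds the keratin filaments. PERP is a membrane protein related to PMP22 and the claudins that is needed for normal desmosomes in stratified epithelium. Its gene is a known target of p63, the factor that TP63 encodes. In stratified epithelium DSG3, DSC3 and PKP1 are characteristic of squamous cells, whereas DSG2, DSC2 and PKP2 are found in many epithelia.

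Markers of epithelium, among them keratins of squamous cells, were present in both lines. Of the 8 markers KRT5, KRT14, KRT6A, KRT17, TP63, EPCAM, CDH1 and SFN, at least 7 had counts in every library, and KRT5 had the highest median, with 814 CPM and a range from 90.6 to 1987 CPM over the 12 libraries. KRT14, the usual partner of KRT5, was at or near 0, with at most 2.42 CPM. The summed level of these markers ran from 1181 to 5973 CPM. PTPRC, which defines leukocytes, had at most 1 count in a library, while the leukocyte list summed to between 24.3 and 124 CPM. Most of that sum was CD68, a lysosomal protein, with 16.1 to 121 CPM, and CD14 reached 15.0 CPM. TYR, which defines melanocytes, had 0 counts, and the melanocyte list summed to at most 3.97 CPM, of which PMEL gave up to 3.92 CPM. The endothelial markers summed to at most 7.87 CPM. VIM, a filament gene of mesenchymal cells that carcinoma cells can also express, had a mean of 1084 CPM in HN6 NC, 522 with siFAT1-1 and 403 with siFAT1-2, and at most 1.42 CPM in any condition mean of HN30.

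In the GENCODE 44 annotation of GRCh38, PERP (ENSG00000112378) spans 138088505 to 138107419 of chromosome 6 on the minus strand, with 3 exons. DSP spans 7541338 to 7586714 of the same chromosome on the plus strand. The RefSeq promoter table holds, for GRCh38.p14, the 250 bases before and the 50 bases after a start site, and 8 of the 10 genes matched, with 10 start sites. No window is given for PKP2 and PKP3. The windows of PERP and of DSG3 and PKP1, which moved in opposite directions with siFAT1-2, are shown 5′ to 3′. Capitals mark matches to TGANTCA, the core motif bound by AP-1 factors, on either strand, and the windows of DSG3 and PKP1 hold none. They cover chr6:138107370-138107669 on the minus strand, chr18:31447491-31447790 on the plus strand and chr1:201283256-201283555 on the plus strand.
PERP: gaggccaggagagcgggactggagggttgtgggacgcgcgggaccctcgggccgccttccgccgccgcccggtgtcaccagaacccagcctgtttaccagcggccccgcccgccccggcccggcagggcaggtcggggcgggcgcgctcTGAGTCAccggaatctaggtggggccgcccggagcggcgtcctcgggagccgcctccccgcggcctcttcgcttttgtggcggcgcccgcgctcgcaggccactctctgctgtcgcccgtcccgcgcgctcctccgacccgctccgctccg
DSG3: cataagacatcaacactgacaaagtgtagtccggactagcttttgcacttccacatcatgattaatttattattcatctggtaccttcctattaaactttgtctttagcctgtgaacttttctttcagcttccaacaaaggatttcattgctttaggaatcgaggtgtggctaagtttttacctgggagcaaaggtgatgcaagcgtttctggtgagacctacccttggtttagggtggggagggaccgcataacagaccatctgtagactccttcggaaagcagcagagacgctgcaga
PKP1: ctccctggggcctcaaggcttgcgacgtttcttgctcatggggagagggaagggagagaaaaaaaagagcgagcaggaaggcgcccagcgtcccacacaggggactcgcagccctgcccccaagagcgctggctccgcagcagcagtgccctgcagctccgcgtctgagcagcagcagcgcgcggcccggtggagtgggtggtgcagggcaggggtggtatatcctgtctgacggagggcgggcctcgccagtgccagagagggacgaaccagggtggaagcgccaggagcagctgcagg

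Searched on both strands, TGANTCA occurred in 1 of the 10 windows, that of PERP, at position -101 from the start site, and in 7.71% of all 35116 promoters in the table. GGGCGG, a motif of Sp factors, occurred in 7 of the 10 windows and in 45.0% of all promoters, with 5 matches in the PERP window, some of which share bases. None of these overlapped the TGANTCA match. CACCTG, an E-box bound by factors such as SNAI1, occurred in 4 of the 10 windows, those of DSP and DSG2 and 1 each of JUP and DSC2, and in 20.6% of all promoters. These motifs were picked after the values were seen, and a match describes the sequence only.

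PERP was between 203 and 337 CPM in the 4 NC libraries and between 515 and 860 CPM in the 8 knockdown libraries. In HN6 it was at 222 and 291 CPM in the NC repeats, 640 and 642 CPM with siFAT1-1, and 774 and 515 CPM with siFAT1-2. In HN30 the NC repeats were at 337 and 203 CPM, those of siFAT1-1 at 764 and 620 CPM, and those of siFAT1-2 at 860 and 633 CPM. The knockdown and NC libraries did not overlap in either line. Fitted over both lines, the log2 fold change was 1.37 (SE 0.18), or 2.58-fold. It was 1.34 with siFAT1-1 and 1.40 with siFAT1-2, and 1.33 within HN6 and 1.41 within HN30. By log2 fold change PERP ranked 193 of the 13887 genes, and none of the other 9 genes ranked above it. By mean log2 CPM it ranked 242. These differences chose the gene and carry no test.

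**Figure D1:**
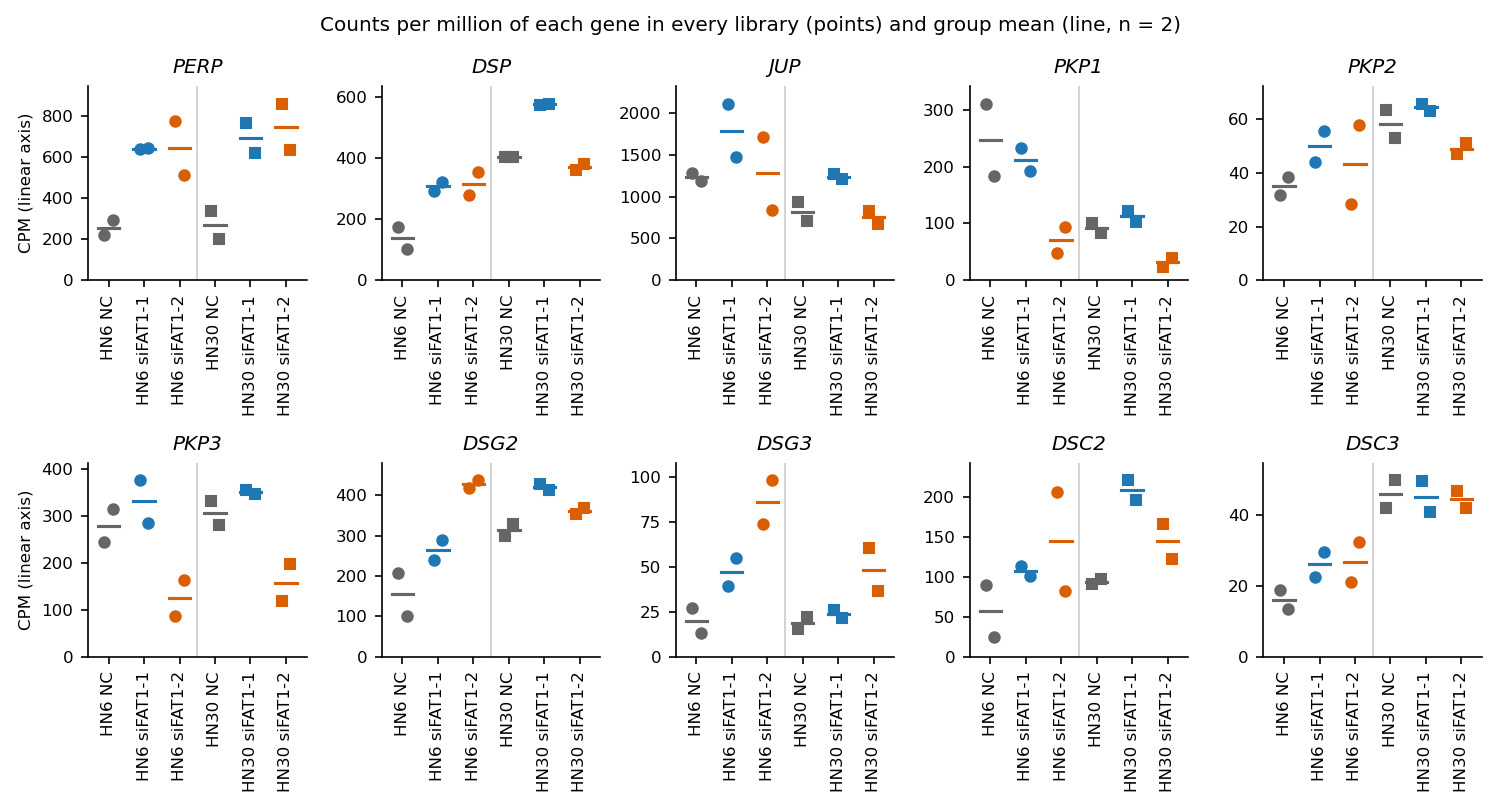
CPM (linear axes from 0) of the 10 genes in each of the 12 libraries. Points are libraries, lines are means of 2 repeats, circles are HN6 and squares HN30. PERP lies between 515 and 860 CPM in the 8 knockdown libraries and between 203 and 337 CPM in the 4 NC libraries, while PKP1 and PKP3 are lowest with siFAT1-2 in both lines.

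The siRNA and interaction values of PERP come from the knockdown groups that chose it, so they too are given without a test. Between the siRNAs it differed by -0.06 on the log2 scale (siFAT1-1 minus siFAT1-2, SE 0.19), and the knockdown value in HN6 minus that in HN30 was -0.09 (SE 0.36). Averaged over the treatments, a contrast that the choice did not use, PERP differed between the cell lines by -0.13 (HN6 minus HN30; 95% interval -0.47 to 0.20; adjusted p = 0.532, edgeR), which did not pass the threshold of 0.05.

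Of the other desmosome genes, the cadherins DSG3, DSC2 and DSG2 and the linker DSP were higher with knockdown before adjustment for the number of genes, and the plakophilins were not. Over both siRNAs and both lines, 0 of the 9 other genes passed an adjusted p under 0.05 for knockdown against NC, where 0.547% of all genes did (edgeR). limma-voom also called 0 of the 9, where it called 96 of all 13887 genes. DESeq2 called 1, DSG3, where it called 640 of all genes. At an unadjusted P under 0.05, 4 of the 9 were higher, DSG3, DSC2, DSG2 and DSP, against 6.77% of all genes, and 2 of them, DSG3 and DSC2, also had a log2 fold change above 1, against 2.03%. The median log2 fold change of the 9 was 0.32, beside 0.02 for all genes tested. The 8 knockdown libraries form 1 group in this comparison, so the spread it measures includes the difference between the siRNAs. The SE of PKP1 was 0.45 here, against 0.25 with siFAT1-1 and 0.26 with siFAT1-2. DSG2 was the only one of the 9 with all 8 knockdown libraries above both NC libraries of their line, a pattern that 2.29% of all genes had. Gaps within 1 line, described below, compare 4 libraries with 2, and the share of all genes with such a gap is not given. With 1 library left out, the values over both lines ran from 0.43 to 0.79 for DSP, 0.46 to 0.85 for DSG2, 0.73 to 1.35 for DSC2, 0.14 to 0.47 for DSC3, -0.77 to -0.37 for PKP1, 0.07 to 0.29 for PKP2 and -0.41 to -0.15 for PKP3. The lowest values of DSP, DSG2, DSC2 and DSC3 came without HN6 NC repeat 2.

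DSG3, the desmoglein of the lower layers of squamous epithelium and the antigen of pemphigus vulgaris, had the log2 fold change nearest to that of PERP (1.32, SE 0.36, adjusted p = 0.124). In HN6 it was at 27.0 and 12.97 CPM in NC, 39.2 and 55.0 CPM with siFAT1-1 and 73.6 and 98.0 CPM with siFAT1-2, and no knockdown library overlapped the NC libraries. In HN30 it was at 15.3 and 22.0 CPM in NC, 25.7 and 21.4 CPM with siFAT1-1 and 60.4 and 36.3 CPM with siFAT1-2, so that 1 library of siFAT1-1 lay within the NC range. Against NC, DSG3 was higher with siFAT1-2 by 1.72 (SE 0.30, adjusted p = 0.0062) and was at 0.77 with siFAT1-1 (SE 0.29, adjusted p = 0.177). Both comparisons use the same 4 NC libraries.

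DSG2, the desmoglein found in most epithelia, was at 207 and 102 CPM in HN6 NC, 240 and 289 CPM with siFAT1-1 and 418 and 437 CPM with siFAT1-2. In HN30 it was at 300 and 328 CPM in NC, 428 and 413 CPM with siFAT1-1 and 354 and 368 CPM with siFAT1-2. The gap between the groups was narrower in HN30 than in HN6, and the fitted log2 fold change over both lines was 0.72 (SE 0.24, adjusted p = 0.205). DSC2, the desmocollin of most epithelia, had a fold change of 1.02 (SE 0.33, adjusted p = 0.185). Its HN6 NC libraries lay far apart, with 89.9 CPM in repeat 1 and 25.1 CPM in repeat 2, against 113 and 101 CPM with siFAT1-1 and 207 and 82.5 CPM with siFAT1-2. In HN30 all 4 knockdown libraries, from 122 to 221 CPM, lay above the NC libraries at 91.0 and 96.9 CPM. With the replicate block, DSC2 passed the threshold against NC with each siRNA (1.17, adjusted p = 0.0492, with siFAT1-1, and 1.03, adjusted p = 0.0378, with siFAT1-2), where the fit without it gave 1.04 (adjusted p = 0.160) and 1.00 (adjusted p = 0.103). With 1 library left out the value with siFAT1-2 ran from 0.57, without HN6 siFAT1-2 repeat 1, to 1.35, without HN6 NC repeat 1. DSC3, the desmocollin of squamous epithelium, was low in HN6. It was at 18.8 and 13.4 CPM in HN6 NC and between 21.1 and 32.4 CPM with knockdown, with no overlap. In HN30 it was between 41.0 and 49.9 CPM, and knockdown and NC overlapped. Its log2 fold change over both lines was 0.32 (adjusted p = 0.483, edgeR).

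The plaque genes differed from one another. JUP (ENSG00000173801) spans 41754604 to 41786931 of chromosome 17, PKP1 (ENSG00000081277) 201283452 to 201332993 of chromosome 1, PKP2 (ENSG00000057294) 32790745 to 32896798 of chromosome 12 and PKP3 (ENSG00000184363) 392614 to 404908 of chromosome 11. DSP, which ties the plaque to keratin, was at 174 and 101 CPM in HN6 NC and between 279 and 354 CPM in the 4 HN6 knockdown libraries, with no overlap. In HN30 it was at 404 and 405 CPM in NC, at 575 and 580 CPM with siFAT1-1 and at 361 and 381 CPM with siFAT1-2, so the libraries of siFAT1-2 lay below NC. Over both lines its log2 fold change was 0.68 (SE 0.23, adjusted p = 0.209). JUP, which also serves in adherens junctions, was at 1289 and 1193 CPM in HN6 NC, 2117 and 1473 CPM with siFAT1-1 and 1721 and 843 CPM with siFAT1-2. In HN30 it was at 939 and 704 CPM in NC, 1269 and 1213 CPM with siFAT1-1 and 834 and 677 CPM with siFAT1-2. All 4 libraries of siFAT1-1 lay above NC, those of siFAT1-2 overlapped it, and the fitted value over both was 0.30 (SE 0.24, adjusted p = 0.590). PKP2, the plakophilin of simple epithelia and heart, stayed between 28.6 and 65.8 CPM (0.18, SE 0.21, adjusted p = 0.714).

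PKP1 and PKP3, plakophilins that are abundant in stratified epithelium, had negative log2 fold changes over both siRNAs (-0.59, adjusted p = 0.571, and -0.28, adjusted p = 0.746), although the siRNAs differed. PKP1 was at 311 and 184 CPM in HN6 NC, 233 and 192 CPM with siFAT1-1 and 48.0 and 93.4 CPM with siFAT1-2. In HN30 it was at 100 and 83.4 CPM in NC, 122 and 103 CPM with siFAT1-1 and 23.6 and 39.1 CPM with siFAT1-2. PKP3 was at 244 and 314 CPM in HN6 NC, 376 and 285 CPM with siFAT1-1 and 86.0 and 163 CPM with siFAT1-2, and in HN30 at 332 and 280 CPM in NC, 354 and 346 CPM with siFAT1-1 and 118 and 196 CPM with siFAT1-2. For both genes, all 4 libraries of siFAT1-2 lay below every NC and siFAT1-1 library of their line. The summed level of the 8 epithelial markers, with KRT5 the most abundant by median, also differed by siRNA. The HN30 sum was 2147 and 1983 CPM in NC, 3194 and 3053 CPM with siFAT1-1 and 1181 and 1609 CPM with siFAT1-2, with no overlap. The HN6 sum was 2413 and 3662 CPM in NC, 5973 and 5065 CPM with siFAT1-1 and 1900 and 2726 CPM with siFAT1-2, where siFAT1-2 overlapped NC. The 8 markers did not move alike. KRT5, KRT6A, KRT17 and SFN had lower means with siFAT1-2 than in NC in both lines. EPCAM had higher means with siFAT1-2, at 495 against 220 CPM in HN6 and at 354 against 240 CPM in HN30. TP63 was at 46.2 against 31.9 CPM in HN6 and at 255 against 238 CPM in HN30. With siFAT1-1 in HN30 the mean of TP63 was 115 CPM. The part of these markers in the result was not tested.

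Against NC, PKP1 was lower with siFAT1-2 (log2 fold change -1.69, SE 0.26, adjusted p = 0.0034) and so was PKP3 (-1.06, SE 0.22, adjusted p = 0.0124), while DSG3 was the 1 of the 9 genes called higher. DSG2 was at 0.86 with siFAT1-2 (SE 0.27, adjusted p = 0.0564) and passed with DESeq2 (adjusted p = 0.0202), limma-voom (0.0495), no filter (0.0497), total counts (0.0499) and without HN30 siFAT1-2 repeat 2 (0.0469). Among all genes 4.35% were called higher and 7.47% lower with this siRNA. With siFAT1-1, 0 of the 9 passed, where 3.25% of all genes did. limma-voom called 0 of the 9 there, with 553 of all 13887 genes called, and DESeq2 called 1, DSP, with 1216 called. At an unadjusted P under 0.05, 5 of the 9 were higher with siFAT1-1, DSP, JUP, DSG2, DSG3 and DSC2, against 8.81% of all genes, and all 9 fold changes were positive with a median of 0.56, beside -0.00 for all genes. The median of the 9 with siFAT1-2 was 0.33. The siRNA difference was tested directly and passed for 3 of the 9 genes, against 17.4% of all genes. PKP1 was higher with siFAT1-1 than with siFAT1-2 by 1.72 (SE 0.26, adjusted p = 0.0018), PKP3 was higher by 1.28 (SE 0.22, adjusted p = 0.0036), and DSG3 differed by -0.94 (SE 0.29, adjusted p = 0.0422). The call of DSG3 was lost with the replicate block (adjusted p = 0.0596) and in 7 of 12 fits with 1 library left out (adjusted p up to 0.130), those without either siFAT1-1 repeat or siFAT1-2 repeat 1 of HN30, HN30 NC repeat 1, siFAT1-1 repeat 1 of HN6 or either siFAT1-2 repeat of HN6, while JUP, at 0.60 (adjusted p = 0.0684), passed with the block (0.63, adjusted p = 0.0234), limma-voom (0.64, adjusted p = 0.0492), DESeq2 (0.60, adjusted p = 0.0496) and without HN6 siFAT1-2 repeat 1 (0.85, adjusted p = 0.0147). PKP2, at 0.30 (adjusted p = 0.353), passed in 1 of 18 alternatives, without HN6 siFAT1-2 repeat 2 (0.57, adjusted p = 0.046). DSP (0.26, 95% interval -0.22 to 0.75), DSG2 (-0.28, -0.79 to 0.24) and DSC2 (0.04, -0.69 to 0.77) did not pass, and their intervals span differences on both sides of 0.

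**Figure D2:**
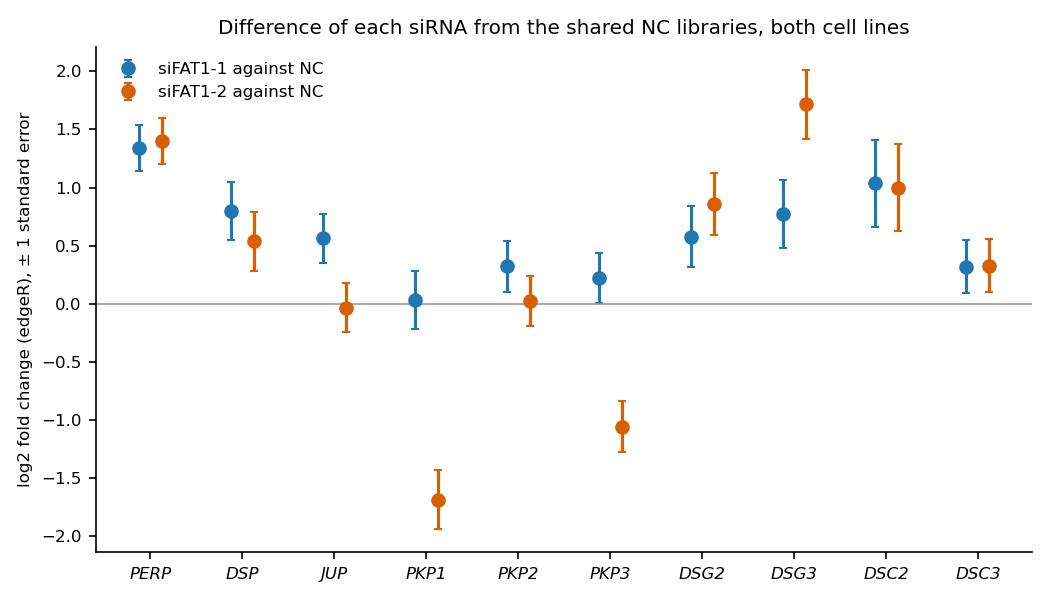
Fitted log2 fold change (vertical axis) of each of the 10 genes with siFAT1-1 (blue) and siFAT1-2 (orange) against the 4 shared NC libraries of both lines, with bars of 1 standard error. PERP lies at 1.34 and 1.40, while PKP1 lies at 0.04 with siFAT1-1 and at -1.69 with siFAT1-2.

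Within HN6, 0 of the 9 genes passed an adjusted p under 0.05 and 0.00720% of all genes did (edgeR). limma-voom also called 0 of the 9, with 6 of all 13887 genes called. DESeq2 called 3, which were DSP, DSG2 and DSG3, with 456 of all genes called. At an unadjusted P under 0.05, 5 of the 9 were higher, DSP, DSG2, DSG3, DSC2 and DSC3, against 5.72% of all genes, and PKP1 was lower. Their fold changes on the log2 scale were 1.18 for DSP, 1.12 for DSG2, 1.67 for DSG3, 1.11 for DSC2 and 0.72 for DSC3, with adjusted p from 0.0946 to 0.340. Without HN6 NC repeat 1, in which DSC2, DSG2, DSG3 and DSP were each higher than in NC repeat 2, 4 of the 9 passed, DSP (adjusted p = 0.0018), DSG2 (0.0014), DSG3 (0.0069) and DSC2 (0.0137), and in that fit 1658 of 14063 genes passed, or 11.8% of all genes. Their values were then 1.61 for DSP, 1.71 for DSG2, 2.28 for DSG3 and 2.30 for DSC2. Without HN6 NC repeat 2 they were 0.81, 0.67, 1.21 and 0.44, and none passed (adjusted p from 0.169 to 0.76). Each of these fits leaves 1 NC library in HN6, which is assumed to vary like the other groups. The sum of the 5 mesenchymal markers also stood apart in HN6 NC repeat 1, at 1617 CPM against 692 CPM in NC repeat 2. With siFAT1-1 it was 690 and 551 CPM, and with siFAT1-2 428 and 590 CPM. VIM gave most of that sum, with 1548 CPM in NC repeat 1. COL1A1 had means of 62.2 CPM in HN6 NC, 90.1 CPM with siFAT1-1 and 102 CPM with siFAT1-2. COL1A2 and DCN were at or near 0 in most libraries. In HN30 the sum was lower in both NC libraries, at 14.7 and 22.5 CPM, than in any knockdown library. Those were at 51.0 and 42.6 CPM with siFAT1-1 and at 36.7 and 32.0 CPM with siFAT1-2. The part of the mesenchymal markers in the result was not tested.

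Within HN30, 0 of the 9 passed, where 0.0576% of all genes did, and limma-voom and DESeq2 also called 0 of the 9. At an unadjusted P under 0.05 DSG3 was the 1 gene that was higher (0.85, SE 0.35, adjusted p = 0.307), against 5.16% of all genes. DSP was at 0.19 and DSG2 at 0.31 in HN30. The interaction passed for 0 of the 9 genes and for 0.00% of all genes, with 0 of the 9 by limma-voom and by DESeq2. At an unadjusted P under 0.05 2 of the 9 passed, DSP and DSG2, against 4.0% of all genes. The log2 fold change of DSP was 0.98 higher in HN6 than in HN30 (95% interval 0.39 to 1.57, adjusted p = 0.974) and that of DSG2 was 0.81 higher (95% interval 0.14 to 1.49, adjusted p = 0.974). Without HN6 NC repeat 1 the interaction passed for these 2 genes, DSP with an adjusted p of 0.0099 and DSG2 with one of 0.0085, and for 886 of the 14063 genes in that fit, or 6.30% of all genes. The values were 1.42 for DSP and 1.41 for DSG2, against 0.62 and 0.36 without HN6 NC repeat 2 (adjusted p = 0.988 for both), and in both fits 1 library stands for HN6 NC, with the spread taken from the other groups.

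Between the cell lines, averaged over the treatments, 6 of the 10 genes differed at an adjusted p under 0.05 and 56.7% of all genes did, so that the share among the 10 was close to the background. HN6 was higher in PKP1 by 1.18 (adjusted p = 0.0012), DSG3 by 0.64 (adjusted p = 0.0340) and JUP by 0.63 (adjusted p = 0.0152). HN30 was higher in DSC3, at -1.01 for HN6 minus HN30 (adjusted p = 0.0006), in DSP at -0.90 (adjusted p = 0.0005) and in DSG2 at -0.48 (adjusted p = 0.0278). Without HN6 siFAT1-1 repeat 1 the calls of JUP, DSG2 and DSG3 were lost (adjusted p = 0.0772, 0.0967 and 0.0641), which left DSP, PKP1 and DSC3. With 1 library left out, the call of DSG2 was lost in 6 of 12 fits (adjusted p up to 0.0967) and that of DSG3 in 8 of 12 (adjusted p up to 0.0872). With total counts in place of TMM the value of DSG3 was 0.56 (adjusted p = 0.0685), and PKP2 passed in its place (-0.51, adjusted p = 0.0347). limma-voom called PKP2 as well (-0.46, adjusted p = 0.0435). The replicate block added PKP2 (-0.45, adjusted p = 0.0265) and DSC2 (-0.65, adjusted p = 0.0235), which gave 8 of the 10. With 1 library left out, DSC2 also passed without HN6 NC repeat 1 (-0.94, adjusted p = 0.0060) and without HN6 siFAT1-2 repeat 1 (-0.82, adjusted p = 0.0426), and PKP2 without HN6 siFAT1-2 repeat 2 (-0.61, adjusted p = 0.005).

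Levels of different genes were compared as TPM, which divides each count by the length of the merged exons and scales the sum to be the same in every library. For some genes the merged exons are longer than the reference (MANE) transcript. They hold 10288 against 4229 bases for PKP2, 9492 against 5697 for DSG2 and 4942 against 3505 for JUP, but 4198 in both for PERP. The order of the genes and the share of PERP therefore depend on the length used, and how far was not tested. JUP had the highest level of the 10 genes in 5 of the 6 conditions, with a mean of 986 TPM in HN6 NC and 781 TPM in HN30 NC. In NC, PERP was the third, at 238 TPM in HN6 and 301 TPM in HN30, behind PKP3 at 287 and 380 TPM, and the ranges of PERP and PKP3 overlapped in both lines. With siFAT1-1 PERP was the second gene and stood apart from PKP3, at 647 against 367 TPM in HN6 and at 770 against 431 TPM in HN30. With siFAT1-2 in HN30, PERP reached a mean of 857 TPM and JUP one of 737 TPM, with overlapping ranges. At the low end were PKP2, from 13.3 to 29.3 TPM, and DSC3, from 8.23 to 28.3 TPM. DSG3 moved from a mean of 14.2 to 72.4 TPM between NC and siFAT1-2 in HN6, and from 15.9 to 41.7 TPM in HN30.

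PERP made up 13.2% ± 3.1 (SD, n = 2) of the summed TPM of the 10 genes in HN6 NC, 21.7% ± 3.3 with siFAT1-1 and 27.3% ± 0.71 with siFAT1-2. In HN30 its share was 15.4% ± 3.1 in NC, 25.5% ± 2.2 with siFAT1-1 and 37.4% ± 4.3 with siFAT1-2. The sum of the other 9 genes was 1590 TPM in HN6 NC, 2359 TPM with siFAT1-1 and 1901 TPM with siFAT1-2, and 1634, 2249 and 1427 TPM in HN30. The mean share of PERP was higher with both siRNAs than in NC, a description since PERP was chosen for its rise, and with siFAT1-2 in HN30 the sum of the other genes was below that of NC.

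**Figure D3:**
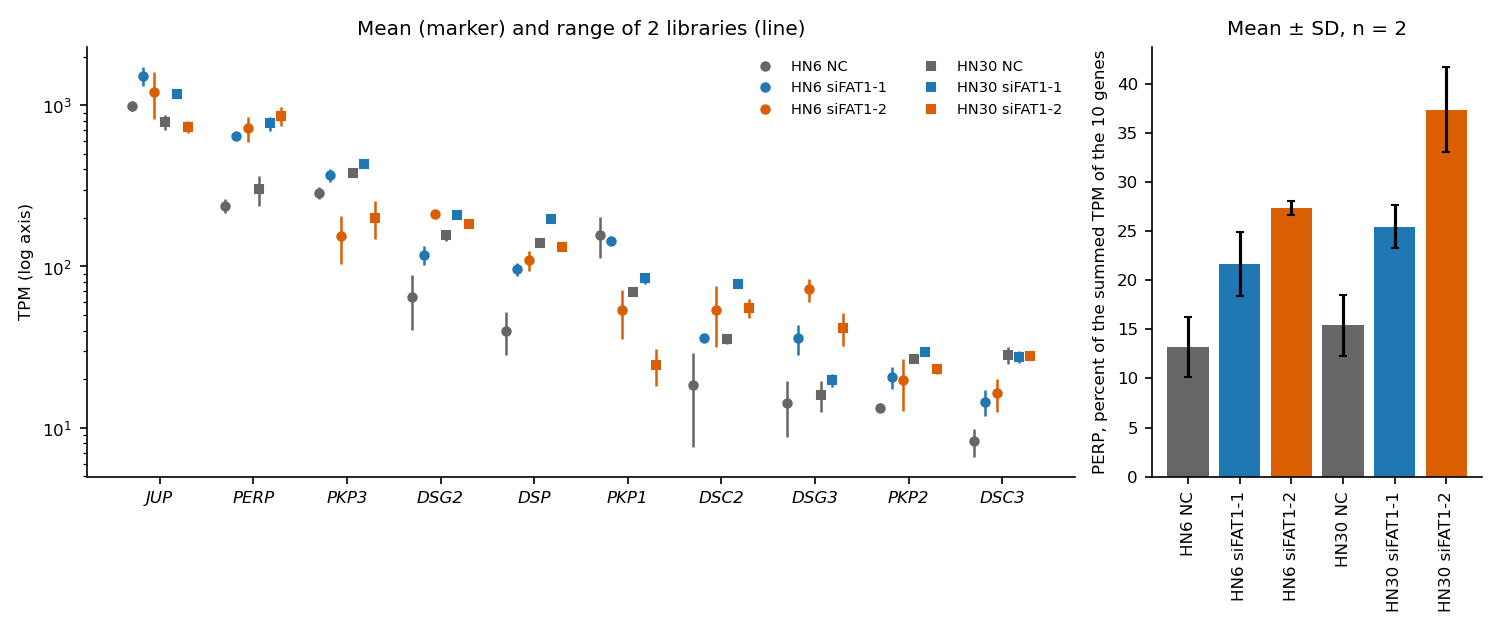
Left, TPM (log axis) of the 10 genes ordered by mean level, with 1 marker per condition at the mean of 2 libraries and a line over their range. Right, PERP as a percent of the summed TPM of the 10 genes (bars, mean ± SD, n = 2), which runs from 13.2% in HN6 NC to 37.4% in HN30 with siFAT1-2.

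Ratios of related genes within each library do not depend on its depth, and 6 pairs were compared. For knockdown against NC, stratified by line, none of the 6 passed the threshold (two-sided exact permutation tests, whose smallest possible p is 0.0044; adjusted p from 0.171 to 0.200). The smallest p, 0.0844 before adjustment in the exact permutation test, belonged to DSG3/DSG2, higher by 0.54 on the log2 scale, and to DSC3/DSC2, at -0.75. Between the lines, 4 of the 6 differed, each at the smallest p that the exact permutation allows (0.0093, adjusted p = 0.0139). HN6 exceeded HN30 by 1.61 in PKP1/PKP2, 1.52 in JUP/DSP, 1.35 in PKP1/PKP3 and 1.14 in DSG3/DSG2. In HN6 NC the ratio of JUP to DSP, in reads per kilobase, was 25.7, and in HN30 NC it was 5.54. DSC3/DSC2 (-0.34, adjusted p = 0.463) and PKP3/PKP2 (0.26, adjusted p = 0.144) did not pass. The PKP1/PKP2 ratio was lowest with siFAT1-2 in both lines, at 2.73 in HN6 and 1.03 in HN30, against 11.4 and 2.62 in NC. The linear ratios of JUP to DSP and of PKP1 to PKP2 depend on the exon lengths used, whereas log2 differences between groups do not.

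**Figure D4:**
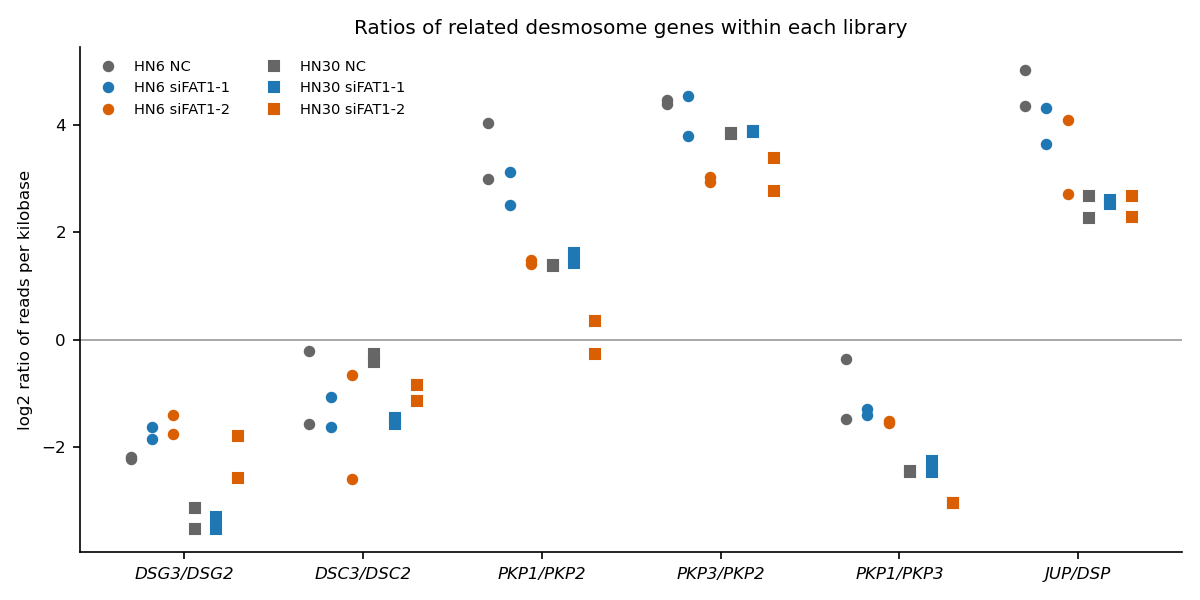
Log2 ratio of reads per kilobase (vertical axis) for 6 pairs of related desmosome genes, with 1 point per library (circles HN6, squares HN30, grey NC, blue siFAT1-1, orange siFAT1-2). JUP/DSP lies higher in every HN6 library than in any HN30 library, and PKP3/PKP2 is lowest with siFAT1-2 in both lines.

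The cadherin members sit together in the genome. On chromosome 18 of GRCh38, 7 desmosomal cadherin genes span 559.644 kb in the order DSC3, DSC2, DSC1, DSG1, DSG4, DSG3 and DSG2, with the desmocollins on the minus and the desmogleins on the plus strand. DSC3 runs from 30989365 to 31042815, DSC2 from 31058840 to 31102522, DSG3 from 31447741 to 31478702 and DSG2 from 31498177 to 31549008. The 4 members at its edges were read in every library, with counts from 460 for DSG3 to 15103 for DSG2. The 3 genes in the middle were at or near 0. DSC1, a desmocollin of the upper epidermis, had at most 11 counts in a library, DSG4 at most 2 and DSG1 at most 13, and DSC1 and DSG4 did not pass the filter. The mean levels of the 4 expressed neighbours are given here as a description. In HN30, DSC2 with siFAT1-1 was at 78.0 TPM against 35.6 TPM in NC, while DSC3, next to it, was at 27.5 against 28.3 TPM.

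**Figure D5:**
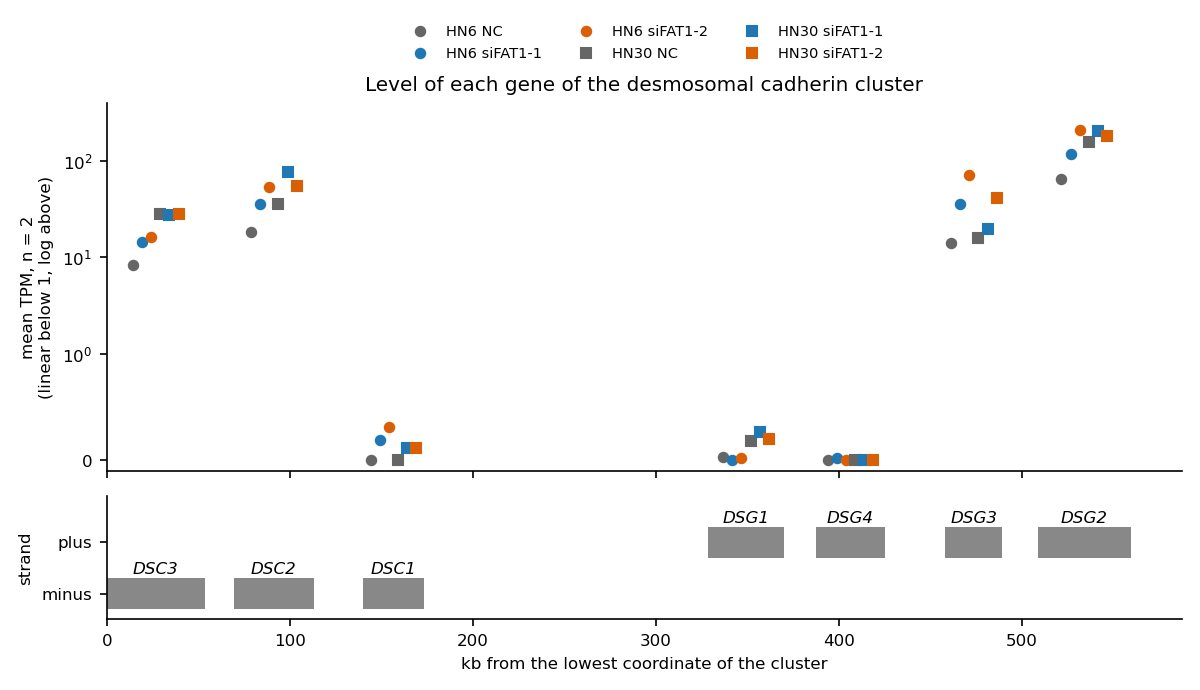
Mean TPM (upper panel, linear below 1 and log above, n = 2) of the 7 desmosomal cadherin genes placed by distance in kb from the lowest coordinate of their cluster, with gene bodies by strand in the lower panel. DSC3, DSC2, DSG3 and DSG2 lie between 8.23 and 212 TPM in the 6 conditions, and DSC1, DSG1 and DSG4 lie at or near 0.

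Across the 12 libraries, centred within each line, the log2 CPM of PERP was most like that of STK38 (Pearson r = 0.981), GOLGA2 (0.976), EMC6 (0.969), MRFAP1 (0.963) and TUFT1 (0.958) among 11479 genes with a mean log2 CPM of at least 1. STK38 encodes a kinase of the NDR family, GOLGA2 a Golgi matrix protein and EMC6 a subunit of the membrane protein complex of the endoplasmic reticulum. The least alike were SLC35B4 (-0.964), CTDSP1 (-0.913) and TNRC18 (-0.909). By Spearman's rho the 5 leading genes were UST, TMC7, HDAC1, COPS8 and SYT17, of which 0 were among the 5 by r, so the order at the top rests on the measure. Of the desmosome genes, DSC2 ranked 464 (r = 0.668) and DSG3 504 (0.659), followed by DSG2 (0.565), DSP (0.542), JUP (0.416), DSC3 (0.350), PKP2 (0.143), PKP3 (-0.371) and PKP1 (-0.495). These correlations share the knockdown and NC groups and the depth of the libraries, and are given as a description.

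Other junction genes were read from fixed lists. The lists were drawn up with earlier results of these data known. In the knockdown comparison over both lines, 0 of the 105 genes tested in the 12 lists passed an adjusted p under 0.05. At an unadjusted P under 0.05, 12 of them passed (11.4%), near the 14.5% of all genes, 2016 of 13887, that did (edgeR). limma-voom also called 0. DESeq2 called 6 of the 105, which were AFDN, GJB6, NECTIN4, TCHP, TP73 and XPC, where it called 640 of all 13887 genes. Of 12 adherens junction genes, 10 had positive fold changes with a list median of 0.10, and 2 were higher at an unadjusted P under 0.05. These were AFDN, the actin-binding afadin, with 0.65 (SE 0.15, adjusted p = 0.0783), and NECTIN4, an adhesion receptor, with 0.98 (SE 0.33, adjusted p = 0.196). For AFDN all 8 knockdown libraries lay above the NC libraries of their line, as for 2.29% of all genes. Against NC, AFDN was at 0.77 with siFAT1-1 (adjusted p = 0.0145) and 0.51 with siFAT1-2 (adjusted p = 0.0389). The second call was lost with the replicate block (0.0547), with no filter (0.0551) and in 10 of 12 fits with 1 library left out (adjusted p up to 0.108), and the first in 3 of 12 (up to 0.0723). Of 12 tight junction genes, 10 were positive with a median of 0.25 and 0 passed an unadjusted P under 0.05. Of 9 hemidesmosome genes, 2 were positive and 7 negative with a median of -0.08. COL17A1, a collagen of hemidesmosomes, was at 0.57 (SE 0.26, adjusted p = 0.337). Of 6 gap junction genes 3 were positive. GJB6, connexin 30, was at 0.31 CPM in HN30 NC and at 1.94 and 1.58 CPM with the siRNAs, and at or near 0 in HN6.

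Of the 11 partners and regulators of desmosomes 6 were positive, with a median of 0.14. TCHP, a keratin-binding protein, was at -0.75 (SE 0.19, adjusted p = 0.115) and was at -0.88 with siFAT1-1 (adjusted p = 0.0453). That call was lost with limma-voom (adjusted p = 0.0506), no filter (0.051), DESeq2 size factors (0.0521) and total counts (0.0574), and in 9 of 12 fits with 1 library left out (up to 0.188). Of the 4 tested relatives of PERP around PMP22, 1 was positive and 3 negative, with a median of -0.25. Keratins form the filaments that DSP anchors. Of 11 stratified keratins tested, 10 were positive with siFAT1-1 (median 0.39) and 0 with siFAT1-2 (median -0.53), and 3 of them were higher with siFAT1-1 than with siFAT1-2 at an adjusted p under 0.05. The 4 simple keratins passed the same test in the same direction, in which 1394 of all 13887 genes passed. Of 9 squamous differentiation genes tested, 8 were negative over both siRNAs, with a median of -0.47. Within HN6, 5 were negative and 4 positive with a median of -0.12, and within HN30 all 9 were negative with a median of -1.39, beside -0.03 and -0.01 for all genes. These genes were low in HN30, with NC means from 0.25 CPM for KLK7 to 7.58 CPM for KRT10, KLK5 and KLK7 at 0 in 1 of the 2 NC repeats and KLK7 at 0 with siFAT1-1, so the fitted values there rest on few counts. Before adjustment, 0 were lower in HN6 and 3 in HN30 at a P under 0.05, KLK5, KLK7 and SBSN, and none of the 9 passed an adjusted p under 0.05 in either line. SBSN, a secreted protein of the epidermis, was at 0.20 and 2.97 CPM in the HN30 NC repeats, and its means in HN6 were at most 0.37 CPM.

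TP63, which drives PERP in stratified epithelium, was at 0.04 (SE 0.29, adjusted p = 0.966), with a sign that changed between settings. The value over both lines averaged 0.49 in HN6 (adjusted p = 0.463) and -0.48 in HN30 (adjusted p = 0.468), an interaction of 0.96 (unadjusted P = 0.0320, adjusted p = 0.974). In HN6 the mean was 31.9 CPM in NC, 43.5 CPM with siFAT1-1 and 46.2 CPM with siFAT1-2, with overlapping libraries. In HN30 the NC libraries were at 224 and 252 CPM, those of siFAT1-1 between 105 and 125 CPM, and those of siFAT1-2 between 235 and 275 CPM, so that siFAT1-1 lay below NC and siFAT1-2 overlapped it. TP73, a relative of TP63, was at -1.08 (SE 0.23, adjusted p = 0.0615, edgeR). All 8 of its knockdown libraries were lower than NC in the same line, a pattern that 438 of the 13887 genes had. TP73 was at -1.26 with siFAT1-1 (adjusted p = 0.0213) and -0.92 with siFAT1-2 (adjusted p = 0.0369). With siFAT1-2 the call was lost with the replicate block (0.0532), with total counts (0.0617) and in 7 of 12 fits with 1 library left out (adjusted p up to 0.121), and with siFAT1-1 in 3 of 12 (up to 0.113).

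Between the lines, 2 genes named for large differences were at or near 0 in HN6. GJB6 had a mean of at most 0.06 CPM in the HN6 conditions, against 0.31 to 1.94 CPM in HN30, and DSG1 was also at most 0.06 CPM, against 0.28 to 0.43 CPM. The other genes that the naming rule took from the junction lists were LMO7, an actin-binding protein of adherens junctions (-4.17 for HN6 minus HN30, adjusted p = 8.09e-07), GJA1, connexin 43 (2.97, adjusted p = 1.37e-05), COL17A1 (2.76, adjusted p = 1.48e-05), TJP3, a tight junction scaffold (-1.96, adjusted p = 8.51e-05), NECTIN2 (1.54, adjusted p = 9.55e-06), CLDN12 (-1.40, adjusted p = 0.0020), PKP4, a plakophilin-related protein (-1.21, adjusted p = 0.0147) and LAMA3 (0.84, adjusted p = 0.0349). The call of LAMA3 was lost with total counts (adjusted p = 0.0524) and in 9 of 12 fits with 1 library left out (adjusted p up to 0.096, value down to 0.52 without HN6 NC repeat 1). LMO7 had a mean of 1.49 CPM in HN6 NC and 36.4 CPM in HN30 NC, and COL17A1 one of 223 CPM in HN6 NC and 27.2 CPM in HN30 NC.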

How the data were processed

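After trimming reads rich in undetermined bases, of low quality or in duplicate, the authors deposited a table of raw counts per gene for all 12 libraries. The submitters' processing notes name HISAT2, featureCounts and hg38; the annotation and the strand setting are not given in the sources used here. Symbols were matched to GENCODE 44, 18278 directly and 753 through an older symbol, and 194 had no match; 27 had been turned into dates. Exons of DSP, DSG2 and PKP2 overlap other annotated genes over at most 4.12% of their length, on the opposite strand for DSP and DSG2, where reads cannot be told apart without the strand setting, and on the same strand for PKP2, where strand would not separate them. No column of per-sample values was left out.

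Counts were tested with edgeR 4.0.16 in R 4.3.3 (TMM, filterByExpr with a minimum count of 10, glmQLFTest, Benjamini-Hochberg over 13887 genes) with cell line as a term; intervals are 1.96 SE either way. limma 3.58.1 and DESeq2 1.42.0 served as alternatives. CPM uses TMM library sizes, TPM merged exon lengths. The fits were tested on simulated data, and no result of that is given here. In the model of condition means, P-values measure the spread between repeats. In fits with cell line as a term, that spread also holds differences in the treatment effect between lines. For knockdown against NC over both lines it further holds the difference between the siRNAs. The labels place the repeats at separate times, so repeat numbers pair the samples within a line. Deviations of same-numbered libraries correlated at 0.0778, 0.219 and 0.242 in HN6 and -0.0337, 0.405 and -0.0216 in HN30 (NC with siFAT1-1, NC with siFAT1-2, siFAT1-1 with siFAT1-2). Total counts ran from 26430049 to 47639010 per library.

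The members and lists were chosen with earlier results of these data known. Named genes were FAT1, the 10 genes, TP63, up to 3 genes of each list with the smallest P under 0.05 for knockdown, up to 2 per junction list with the largest difference between lines, and the 5 genes most and 3 least like PERP; some of the genes that this rule names, 1 list and 1 motif are not reported here. Figures were made with Python 3.11.15 and matplotlib 3.10.9.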

Additional observations from a re-analysis of the deposited data

How the results depend on the processing

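The log2 fold change of PERP for knockdown against NC lay between 1.24 and 1.5 over 19 alternatives, lowest without HN30 NC repeat 2 and highest without HN30 NC repeat 1. The calls of PKP1, PKP3 and DSG3 against NC with siFAT1-2 held under all 18 alternatives. Genome-wide, the 76 genes called for knockdown became 44 with the replicate block, 640 with DESeq2 and between 12 and 61 without any 1 library. Among the 9 other genes, DESeq2 called 1 over both siRNAs (DSG3), 1 with siFAT1-1 (DSP), 3 within HN6 and 4 with siFAT1-2 where edgeR called 3 (DSG2 added). Of all 13887 genes, DESeq2 called 640, 1216, 456 and 2694 in these comparisons, in that order. limma-voom also added DSG2 with siFAT1-2, where it called 1917 of all genes, and PKP2 between the lines (7 of the 10 genes against 6), where it called 8103. Both tools added JUP between the siRNAs (4 against 3), where DESeq2 called 3593 of all genes and limma-voom 2681. The replicate block called 1 with siFAT1-1 (DSC2), where it called 411 of all genes. Without any 1 library, 3 to 6 of the 10 were called between the lines, 0 to 4 of 9 within HN6 and 0 to 2 of 9 in the interaction. The upper ends of the last 2 came without HN6 NC repeat 1, where 11.8% and 6.30% of all genes were called. Apart from the calls named here and beside the results, the replicate block changed no other call of the 10 genes. Of 2490 single values under an alternative, 2265 kept their direction and their side of the threshold and 59 changed sign. The cause was not tested.

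The values that changed sign had not passed the threshold. With total counts alone they were 0.087 for JUP with siFAT1-2, -0.064 for DSC2 between the siRNAs, and 0.029 for PERP and 0.043 for PKP3 in the interaction. With limma-voom they were -0.033 for PKP2 with siFAT1-2, 0.0044 for DSC3 between the siRNAs, -0.013 for JUP in the interaction and -0.10 for TP63 over both siRNAs. Without the cell line term TP63 was at -0.23. With the replicate block PKP2 with siFAT1-2 was at -0.0093 and JUP in the interaction at -0.021.

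With 1 library left out at a time, values that changed sign ran over both siRNAs from -0.14 to 0.18 for TP63. With siFAT1-1 they ran from -0.082 to 0.24 for PKP1. With siFAT1-2 they ran from -0.28 to 0.11 for JUP and from -0.24 to 0.15 for PKP2. Between the siRNAs they ran from -0.18 to 0.046 for PERP, from -0.14 to 0.46 for DSC2 and from -0.14 to 0.18 for DSC3. Between the lines they ran from -0.24 to 0.0035 for PERP. Within HN6 they ran from -0.014 to 0.50 for JUP. Within HN30 they ran from -0.17 to 0.085 for PKP2 and from -0.15 to 0.091 for DSC3. In the interaction they ran from -0.50 to 0.23 for PERP, from -0.25 to 0.27 for JUP, from -0.74 to 0.034 for PKP1, from -0.34 to 0.13 for PKP3 and from -0.44 to 1.42 for DSC2.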
